A study of Mus musculus with 30 samples.

Results

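The comparison described here set the peripheral blood mononuclear cell (PBMC) RNA of C57BL/6 mice that carried a large B16F10 melanoma against that of mice inoculated with few B16F10 cells. B16F10 is a mouse melanoma line that grows under the skin of C57BL/6 mice with an intact immune system. The members were the PBMC libraries whose titles say early tumor (S group, 2000 cells per mouse, with no tumor seen at autopsy on day 14) and large tumor (O group, 100000 cells per mouse), 10 of the 30 libraries of the series. The labels name no genetic alteration of the mice, and the study's methods describe them as young adult females injected subcutaneously in the right flank. The other libraries came from mice injected with buffer (C group) and from platelets of all 3 groups. Each PBMC library was made from RNA pooled over mice, and the pools are named here by group and replicate number, O1 to O5 and S1 to S5. O1 and O4 held 3 mice, O2 and S2 held 4, and the other 6 pools held 5. S group may include mice in which no tumor would ever have formed, and the size of the tumors was not analysed here.

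PBMCs are the lymphocytes and monocytes that float at the interphase when blood is spun over a density medium, while red cells and granulocytes sink through it. In a healthy mouse they are mostly B cells and T cells, with fewer natural killer (NK) cells and monocytes. Large tumors are known to draw on the bone marrow, so that immature myeloid cells and nucleated or young red cells can enter the blood. Young red cells and low density neutrophils are lighter than their mature forms and can stay in the mononuclear layer.

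The 10 libraries held between 13390983 and 15973449 counts on genes. The markers of B cells (Cd79a, Ms4a1), T cells (Cd3d, Cd3e), NK cells (Ncr1, Nkg7) and monocytes (Csf1r, Lyz2) were measured in every library, as the label PBMC implies, but markers of red cells were abundant too. Levels are given as CPM, the count of a gene scaled to a fixed library total after TMM normalization of these 10 libraries. Hemoglobin genes took 24.5, 18.2, 15.1, 19.2 and 6.52% of the counts in O1 to O5 and 5.1, 7.93, 8.62, 3.23 and 4.74% in S1 to S5. O5 lay within the range of S group and the other 4 libraries of O group lay above it. In O1 and O4, the pools of 3 mice, counts on the alpha globin genes Hba-a1 and Hba-a2 were 4.21 and 4.7 times those on the beta globin genes Hbb-bs and Hbb-bt. In the other 8 libraries this ratio was between 0.725 and 1.01. On the first principal component, which held 49.7% of the variance, O1 (-94.9) and O4 (-44.6) stood apart from the other 8 libraries, which lay between 5.09 and 26.4. S3 had 32900 genes with at least 1 count, against 20540 to 22991 in the others. The common biological coefficient of variation was 32.6% within O group and 18.3% within S group. Many results are therefore also given without O1 and O4, an alternative added after these values were seen.

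**Figure D1:**
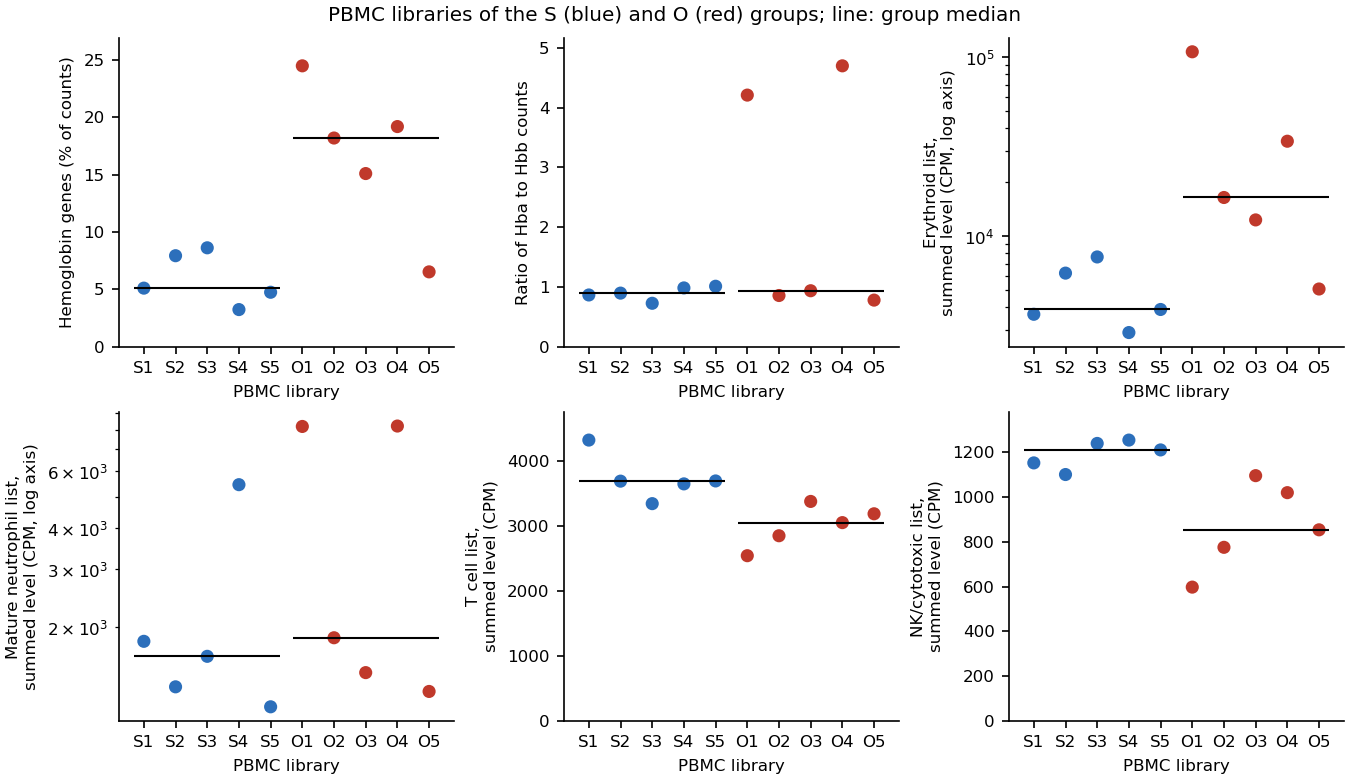
Hemoglobin share of counts, ratio of alpha to beta globin counts, and the summed level of 4 gene lists in CPM, the library-scaled count, in each PBMC library, with S group in blue, O group in red and the group median as a line. O1 and O4 stand apart in the globin ratio (4.21 and 4.7), O5 lies among the S group libraries for the hemoglobin and erythroid panels, and the mature neutrophil list is high in O1, O4 and S4.

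PBMC samples of O group and S group were compared over 14686 genes with edgeR's quasi-likelihood F test. Genes with an unadjusted P under 0.05, the criterion of the study, are named called here. They numbered 1796 (12.2%), against 734 that chance alone would give, with 1145 (7.8%) higher and 651 (4.43%) lower in O group. No gene reached an adjusted P under 0.05, and the smallest adjusted P was 0.226. At that level DESeq2, run without a filter on low counts, gave 240 genes and voom gave 1. Called genes below did not pass correction for the number of genes tested in edgeR's test. The changes were not symmetric in size, with 435 called genes more than 2-fold higher and 22 more than 2-fold lower in O group. Among called genes the median size of the log2 fold change was 0.70 for higher and 0.36 for lower genes, and over all genes tested the median log2 fold change was 0.00085. In 271 genes (1.85%) the 5 O group libraries did not overlap with the 5 S group libraries, 123 above (0.838%) and 148 below (1.01%). With O1 and O4 set aside, 683 genes were higher and 605 lower. Of the 1145 genes called higher in the full comparison, 448 were called again, and of the 651 called lower, 297 were. The sign was kept in 1088 and 651 of them.

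**Figure D2:**
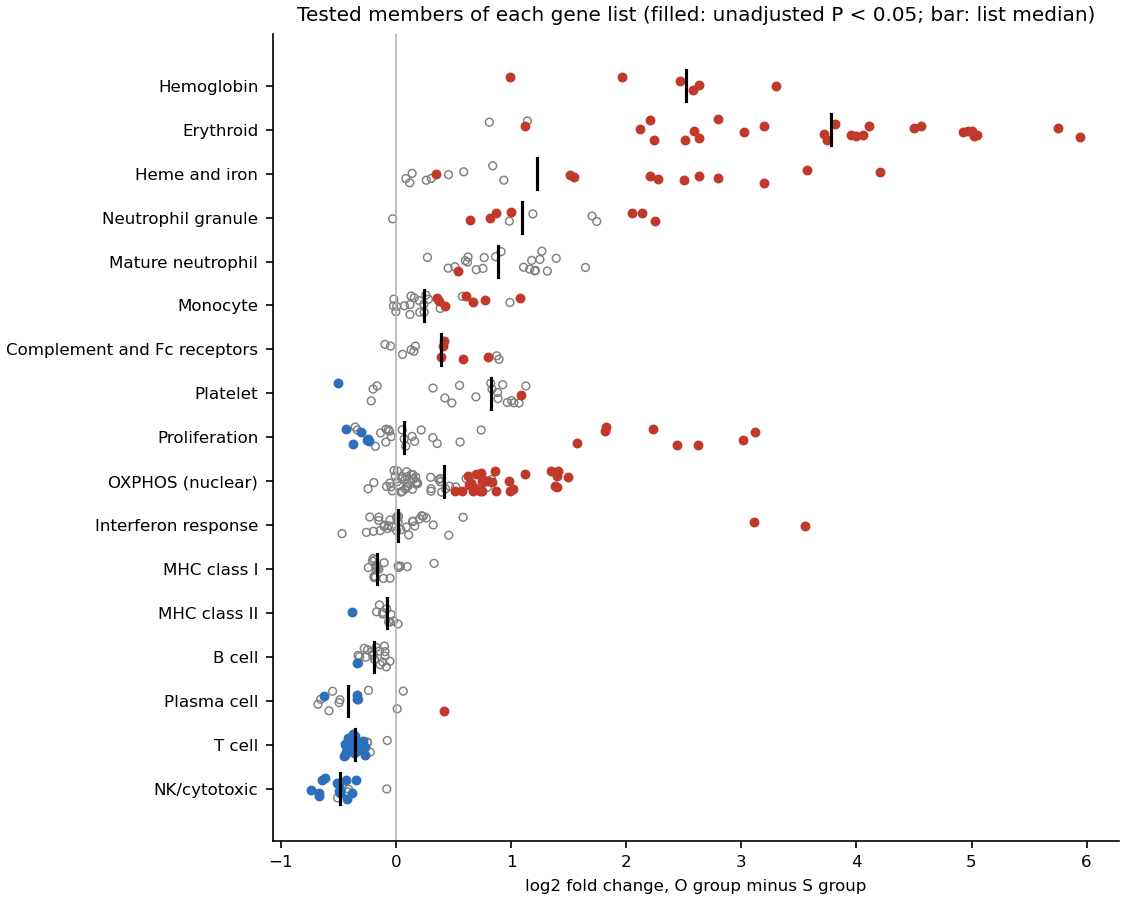
Log2 fold change of O group minus S group for each tested gene of 17 gene lists, with 1 point per gene, filled where the unadjusted P was under 0.05 (red higher, blue lower in O group), and a bar at the list median. Hemoglobin and erythroid genes lie to the right of 0, up to 5.94, and T cell, NK or cytotoxic and B cell genes lie wholly left of 0.

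Among the gene lists, those of red cells had the highest medians. All 6 tested hemoglobin genes and 26 of 28 tested erythroid genes were higher in O group at an unadjusted P under 0.05, against 7.8% of all genes tested, and none was lower. The median log2 fold change was 2.52 for the hemoglobin genes and 3.78 for the erythroid genes, from 0.81 to 5.94, against 0.00085 over all genes tested. The uncalled erythroid genes were Epor (1.14), which encodes the erythropoietin receptor, and Gata1 (0.81), the master transcription factor of the lineage. The groups overlapped in every gene of both lists. With the replicate number as a block, 6 hemoglobin genes but only 12 erythroid genes were called. The marrow makes red cells from nucleated precursors that fill with hemoglobin, lose their nucleus and enter blood as reticulocytes, which still hold RNA. In bulk RNA, fewer cells of a type and less RNA per cell cannot be told apart, nor can more of either.

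Many red cell genes carry sites for the erythroid factor GATA1 near their start, and the windows of 2 genes on which these results turn are shown from RefSeq (GRCm38.p6), in lower case with GATAA or its reverse complement TTATC in capitals. The bases run 5′ to 3′ on the coding strand and end before the earliest annotated start, so 208 and 89 bases are shown of the 250 before the RefSeq start. Alas2 encodes the first enzyme of heme synthesis in red cells and the window lies at chrX:150547167-150547374 on the plus strand, while Hba-a1 encodes alpha globin and the window lies at chr11:32283422-32283510 on the plus strand.
Alas2: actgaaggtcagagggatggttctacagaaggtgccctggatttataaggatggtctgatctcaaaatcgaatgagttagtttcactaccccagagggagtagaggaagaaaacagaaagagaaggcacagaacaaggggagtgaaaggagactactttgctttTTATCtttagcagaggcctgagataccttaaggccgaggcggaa
Hba-a1: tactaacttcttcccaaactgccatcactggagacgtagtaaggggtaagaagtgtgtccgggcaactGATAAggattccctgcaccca
Over the full 250 bases, more than is shown for these 2 genes, GATAA in either direction was present in 10 of the 19 tested erythroid genes with a RefSeq window (52.6%), in 4 of 6 hemoglobin genes (66.7%), and in 7418 of all 32851 windows (22.6%). A match of these letters is a description of the window and not a bound site.

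Alas2 had 28290, 6665, 5334, 11300 and 1902 CPM in O1 to O5 and 1275, 2316, 2762, 927 and 1358 CPM in S1 to S5. O1 to O4 were above every S group library and O5 was among them, and the log2 fold change was 2.63 ± 0.636 (SE; adjusted P = 0.296 in edgeR's test). Hba-a1 had 319600, 73890, 55220, 153900 and 20120 CPM in O group and 18450, 27160, 29830, 11910 and 16940 CPM in S group. Its order of O group libraries was the same, with a log2 fold change of 2.58 ± 0.646. The adult beta globin gene Hbb-bs behaved differently in the pools of 3 mice, with 39500, 71210, 61900, 19850 and 25510 CPM in O group and 18940, 30860, 32600, 11840 and 15470 CPM in S group. Here O2 and O3 were highest and O4 was within the S group range, and the log2 fold change was 0.99 ± 0.408. The other beta globin gene, Hbb-bt, was called higher by 1.97. It took 2.41, 3.14, 1.66, 1.77 and 0.744% of the counts, before scaling, in O1 to O5. Hba-a1 with Hba-a2 and Hbb-bs with Hbb-bt are near-identical copies, so the split of reads between the copies is uncertain.

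Genes of the red cell membrane had the largest log2 fold changes of the erythroid list. Slc4a1, the anion exchanger band 3, had 16490, 551, 295, 2174 and 148 CPM in O1 to O5 and 85.7, 146, 235, 42.3 and 104 CPM in S1 to S5. O1 was the highest by a wide margin, O4 came next, and O5 overlapped with S group (log2 fold change 5 ± 1.3). Rhag (5.94) and Add2 (5.75), also parts of the membrane and its skeleton, had the highest log2 fold changes of the list. Per library, the median ratio to the S group median over the 28 erythroid genes was 64.7, 3.69, 2.5, 12.6 and 1.23 in O1 to O5, and over the 6 hemoglobin genes it was 13.3, 4.42, 3.54, 8.22 and 1.4. O1 was the highest library for all 28 erythroid genes and O4 the next for 27. O5 lay within the S group range for 26 of the 28, while O2 was above it for 23 and O3 for 19. In O1 and O4 the erythroid ratio was thus above the hemoglobin ratio, and in the other O group libraries it was below. Without O1 and O4, 20 erythroid genes, all among those 26, were called higher with a median of 1.06, and 6 hemoglobin genes with a median of 1.4.

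Heme synthesis and iron genes were higher in part, 11 of 20 at an unadjusted P under 0.05, against 7.8% of all genes tested, with a median log2 fold change of 1.23. Called genes included Fech (3.20), which inserts iron in the last step of heme synthesis, the transferrin receptor gene Tfrc (2.79), and the ferritin light chain gene Ftl1 (1.54). The heme oxygenase gene Hmox1 (0.31), the housekeeping enzyme gene Alas1 (0.12) and the iron exporter gene Slc40a1 (0.94) were not called. Urod, a middle enzyme of the pathway, had 1512, 72.4, 41.8, 375 and 38.9 CPM in O1 to O5 and 36.1, 37.4, 38.6, 28.3 and 31.2 CPM in S1 to S5. It was the only gene of these 3 lists whose groups did not overlap, though O5 exceeded S3 by less than 1 CPM (log2 fold change 3.57 ± 0.989, not called with the replicate block). After removal of O1 and O4, 6 of the 20 genes were called higher and 3 lower, with the replicate block 4 were called, and with voom 3 (median 0.26).

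**Figure D3:**
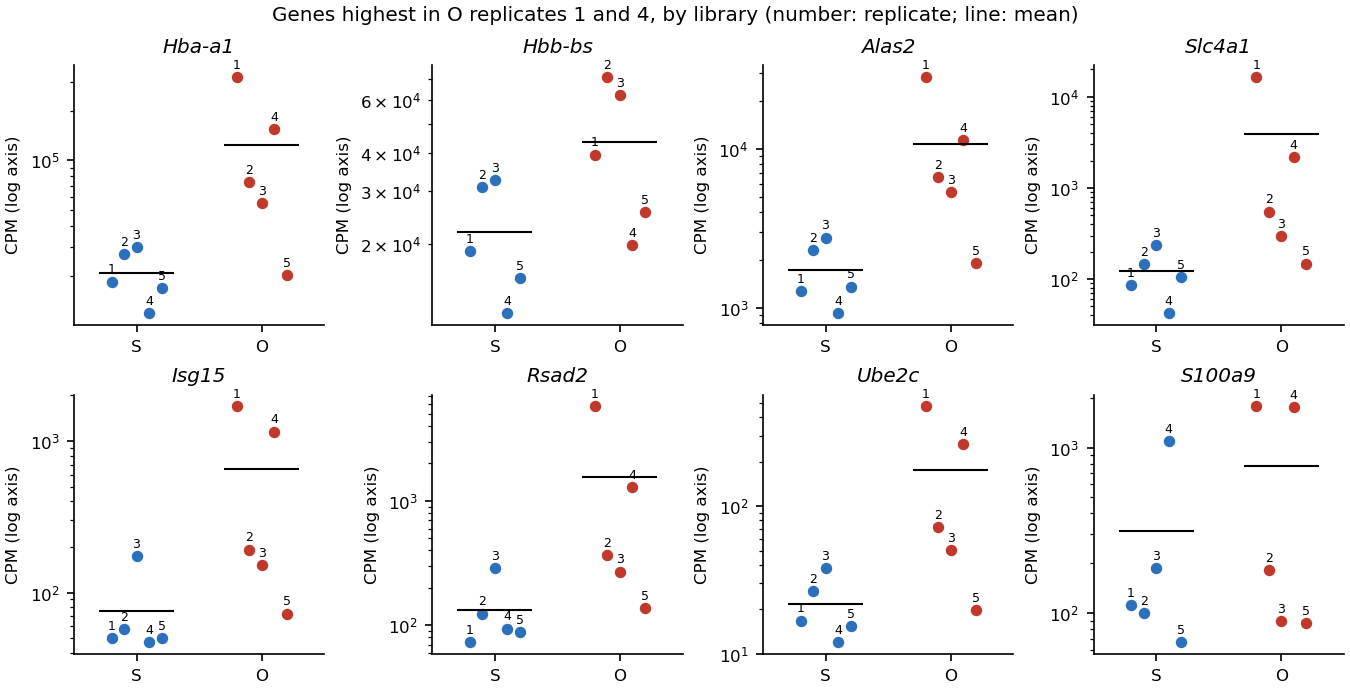
CPM of 8 genes in each library on log axes, with the replicate number above each point and the mean as a line. Alas2, Slc4a1, Isg15, Rsad2 and Ube2c are highest in O1 with O4 next, Hbb-bs is highest in O2, and S100a9 is high in O1, O4 and S4.

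Single proliferation genes were highest in the same libraries as the red cell genes. Of 33 proliferation genes, 8 were higher and 6 lower in O group, against 7.8 and 4.43% of all genes tested (median log2 fold change 0.07). The higher ones were Ube2c, Nusap1, Mki67, Rrm2, Ccnb2, Tyms, Tpx2 and Ccna2, from 1.57 to 3.12. Ube2c, which marks mitotic proteins for destruction, had 474, 72.3, 50.5, 263 and 19.8 CPM in O1 to O5 and 16.8, 26.6, 38, 12 and 15.4 CPM in S1 to S5, the order of O group libraries seen for Alas2. The lower genes, Mcm3, Mcm5, Mcm6, Mcm7, Stmn1 and Top2a, are mostly parts of the DNA replication helicase. Mcm6 had 35.9, 41.9, 43.3, 41 and 47 CPM in O group and 50.6, 54.2, 51.2, 53.1 and 49.7 CPM in S group. All O group values of Mcm6 lay below all S group values (log2 fold change -0.31 ± 0.0755). Without O1 and O4, 1 proliferation gene was higher and 8 were lower, and with the replicate block the counts were 1 and 6.

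Of 74 nuclear genes of oxidative phosphorylation, 28 were higher, against 7.8% of all genes tested, and none lower (median log2 fold change 0.41), while none of the 12 tested genes encoded by the mitochondrial genome was called at an unadjusted P under 0.05. Cox7b, a small subunit of cytochrome c oxidase, had 213, 57.9, 41.6, 137 and 38.5 CPM in O1 to O5 and 40.9, 36.4, 40.3, 30.5 and 36.1 CPM in S1 to S5. O1 and O4 were high, while O5 was within the S group range (log2 fold change 1.40 ± 0.443). With O1 and O4 set aside, 1 of the 74 genes was called, with a median of 0.02, and with the replicate block 16 were called higher and 1 lower. The part of the red cell content of these libraries in the proliferation and oxidative phosphorylation counts was not tested.

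Of 33 interferon response genes, Isg15 and Rsad2 were higher and no other was called (median log2 fold change 0.02), a share near the 7.8% of all genes tested. Isg15, a ubiquitin-like modifier, had 1697, 192, 151, 1153 and 72.4 CPM in O1 to O5 and 49.7, 57.1, 174, 46.9 and 50.1 CPM in S1 to S5. Rsad2, the antiviral enzyme viperin, had 5757, 365, 270, 1285 and 137 CPM in O group and 73, 124, 287, 93.9 and 88 CPM in S group. For both genes O1 and O4 were the highest libraries and S3 was the highest of S group, above O3 and O5. The log2 fold changes were 3.11 ± 0.865 and 3.55 ± 0.993, and Rsad2 was not called with the replicate block. With that block 1 of the 33 genes was called higher and 2 lower. When 1 library was left out, from 2 to 6 were called higher and from 0 to 1 lower. Widely used interferon response genes such as Ifit1 (0.24), Mx1 (-0.07) and Oas2 (0.04) were not called. The window before Isg15, chr4:156200819-156201068 on the minus strand, is shown because its response element is shared with list members that were not called. Capitals mark GAAA followed after 2 bases of any kind by another GAAA, which matched at 3 overlapping positions.
Isg15: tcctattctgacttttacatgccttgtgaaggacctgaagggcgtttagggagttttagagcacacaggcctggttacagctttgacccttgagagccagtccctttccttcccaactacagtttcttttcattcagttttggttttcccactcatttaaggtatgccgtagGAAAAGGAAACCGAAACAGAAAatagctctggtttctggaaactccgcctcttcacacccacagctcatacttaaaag
On either strand this motif was in 13 of the 26 tested interferon genes with a window (50%), in none of the 19 erythroid windows, and in 978 of all 32851 windows (2.98%). When O1 and O4 were left out, the log2 fold change was 0.87 for Isg15, which was no longer called, and 0.95 for Rsad2, which was.

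Most T cell and NK cell genes were lower in O group, each by less than 2-fold. Of 26 T cell genes, 22 were lower at an unadjusted P under 0.05, against 4.43% of all genes tested, and none was higher, with a median log2 fold change of -0.36. Of 20 NK and cytotoxic genes, 15 were lower, against the same 4.43%, and none was higher, with a median of -0.49. The groups did not overlap in 6 of the T cell genes and 9 of the NK and cytotoxic genes, against 1.01% of all genes tested. T cells recognise antigen through a receptor with CD3 chains that signals through the kinases Lck and Zap70, and NK cells kill through perforin and granzymes under the control of receptors of the Klr family.

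Klrb1c, which encodes the NK1.1 antigen of NK cells, had 13, 12.4, 15.8, 18.2 and 16.9 CPM in O1 to O5 and 26.2, 21.3, 23.9, 23 and 27.4 CPM in S1 to S5. Every O group value lay below every S group value, with a log2 fold change of -0.67 ± 0.124. Klrd1, the CD94 chain of inhibitory and activating NK receptors, had 38.6, 38.3, 47.2, 43.1 and 43.5 CPM in O group and 59.8, 55.1, 52, 51.9 and 55 CPM in S group, again without overlap (-0.38 ± 0.0765). Ncr1, the activating receptor NKp46, had 13.7, 11.2, 20.9, 20.2 and 17.3 CPM in O group and 22.5, 25.9, 25.6, 27.1 and 29.8 CPM in S group (-0.65 ± 0.166). Nkg7, a protein of cytotoxic granules, had 49.8, 60.2, 76.5, 73.7 and 63.3 CPM in O group and 107, 79.5, 87.1, 87.5 and 92.5 CPM in S group (-0.49 ± 0.123). In both of the latter genes the groups also did not overlap. The transcription factor gene Eomes (-0.51), the receptor gene Klrg1 (-0.67), the granzyme gene Gzma (-0.62) and the perforin gene Prf1 (-0.49) were lower as well. Gzmb (-0.42), Ccl5 (-0.41), Tbx21 (-0.46), Klra4 (-0.51) and Fasl (-0.08) did not pass the test.

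Among T cell genes, Lck had 164, 172, 199, 186 and 194 CPM in O1 to O5 and 324, 249, 208, 221 and 244 CPM in S1 to S5. No O group library reached the lowest of S group, S3, and the log2 fold change was -0.44 ± 0.121. Cd3d had 54.9, 68.9, 75.2, 76 and 76.3 CPM in O group and 122, 89, 82.2, 93.2 and 89.1 CPM in S group, without overlap (-0.44 ± 0.125). Cd4, the coreceptor of helper T cells, had 89.7, 98.4, 112, 115 and 121 CPM in O group and 154, 133, 120, 133 and 147 CPM in S group. Its highest O group library, O5, was just above S3, the lowest of S group (-0.36 ± 0.101). Genes of CD8 T cells (Cd8a -0.33, Cd8b1 -0.43), of regulatory T cells (Foxp3 -0.29) and of naive T cells (Tcf7 -0.27, Lef1 -0.31, Il7r -0.30) were all lower. Bcl11b (-0.22), Cd28 (-0.25), Lat (-0.25) and the homing receptor gene Ccr7 (-0.08) did not pass the test.

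Of the 22 T cell genes called lower, 18 were called again without O1 and O4, and of the 15 NK and cytotoxic genes, 13 were. In all, 19 T cell genes (median -0.29) and 15 NK and cytotoxic genes (median -0.43) were called lower without these pools. O1 had the lowest ratio to the S group median in both lists (0.66 and 0.502), and O5, whose hemoglobin share lay within the S group range, had ratios of 0.866 and 0.711. O5 was below every S group library for 16 of the 26 T cell genes and 18 of the 20 NK and cytotoxic genes. Removing hemoglobin genes before scaling left 22 and 15 genes called, but this setting kept the other red cell genes. The part of the red cell content of these libraries in the lower T cell and NK values was not tested.

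**Figure D4:**
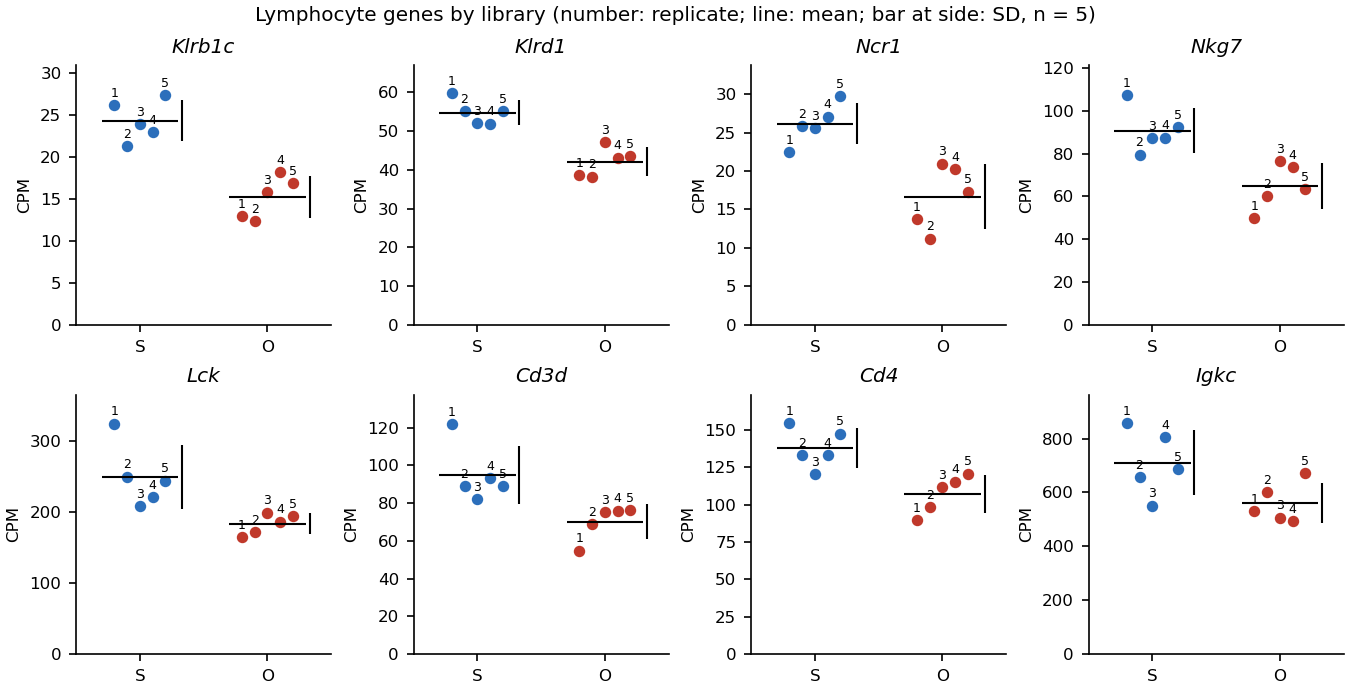
CPM of 4 NK and cytotoxic genes (Klrb1c, Klrd1, Ncr1, Nkg7), 3 T cell genes (Lck, Cd3d, Cd4) and the B cell gene Igkc in each library, with the replicate number above each point, the mean as a line and the SD as a bar (5 libraries per group). The groups do not overlap in the first 6 genes, overlap at 1 library in Cd4, and overlap in Igkc.

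All 20 B cell genes had values below 0, from -0.34 to -0.05 with a median log2 fold change of -0.19. Only the immunoglobulin light chain gene Igkc was called lower, a share near the 4.43% of all genes tested, and voom called 7. Igkc had 529, 601, 506, 493 and 673 CPM in O1 to O5 and 857, 656, 551, 805 and 686 CPM in S1 to S5, and the groups overlapped (-0.34 ± 0.138). Without O5, 10 of the 20 B cell genes were called lower, with a median of -0.31. Whether B cell genes differed from T cell genes in their change was not tested. Of 14 genes of plasma cells, which secrete antibody, Mzb1 (-0.34), Ighg3 (-0.63) and Igkc were lower and Xbp1 (0.42) was higher. Of 11 genes of MHC class II only H2-Oa (-0.38) was called, and of 19 genes of MHC class I presentation none was (medians -0.08 and -0.16), though 4 of the latter were called lower without O4 and 2 with the replicate block. Of 12 dendritic cell genes 1 was lower, Clec9a (-0.47), which marks cross-presenting dendritic cells. None of these B cell, plasma cell, MHC class II and dendritic cell calls was kept without O1 and O4, where the log2 fold changes were -0.27 for Igkc, -0.61 for Ighg3, -0.24 for Mzb1, 0.22 for Xbp1, -0.22 for H2-Oa and -0.34 for Clec9a. With the replicate block, 5 plasma cell and 3 dendritic cell genes were called lower, and without O4 alone no plasma cell gene was called lower.

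Monocyte genes were higher in part. Of 25, 7 were higher, against 7.8% of all genes tested, and none was lower (median log2 fold change 0.24), namely Vcan, Emilin2, Fn1, F13a1, Itgam, Mpeg1 and Sirpa. Vcan, a matrix proteoglycan made by classical monocytes, had 189, 99.3, 83.6, 88.7 and 62.6 CPM in O1 to O5 and 40.4, 60.5, 56.3, 40.4 and 50.3 CPM in S1 to S5. O5 was just above S2 and the groups did not overlap (1.08 ± 0.266). Emilin2 (0.61 ± 0.14) and Fn1 (0.78) encode matrix proteins and F13a1 (0.67) a clotting enzyme of monocytes. Csf1r (0.24), Ccr2 (0.28), Lyz2 (0.38), Ly6c2 (-0.02) and Cx3cr1 (0.00), which define classical and patrolling monocytes, did not pass the test. The count was 12 with the replicate block, Lyz2 among them, and from 3 to 9 when 1 library was left out. Of the 7 genes, 4 were called again without O1 and O4, and Itgam (0.21), Sirpa (0.23) and F13a1 were not.

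Genes of complement and of antibody receptors were higher in 5 of 13, against 7.8% of all genes tested, with a median of 0.39. The central complement gene C3 had 285, 294, 256, 223 and 234 CPM in O1 to O5 and 176, 150, 212, 119 and 205 CPM in S1 to S5, without overlap (0.58 ± 0.157). Cd93, a surface receptor of monocytes and progenitors, had 92.5, 83, 53.6, 52.8 and 50.1 CPM in O group and 32, 42.9, 35.9, 35.3 and 44.1 CPM in S group, also without overlap (0.80 ± 0.186). The Fc receptor genes Fcgr3 (0.42) and Fcer1g (0.41) and the properdin gene Cfp (0.39) were higher too, while Fcgr1 (0.17) and Fcgr4 (0.06) were not called. After removal of O1 and O4, 3 of the 13 were called, C3 and Cd93 among them, and without O1 alone or O4 alone 2 were. Cd47, the signal that protects cells from being engulfed, had 546, 343, 343, 382 and 335 CPM in O1 to O5 and 309, 320, 318, 277 and 322 CPM in S1 to S5. The groups did not overlap, and the gene was no longer called without O1 and O4 (0.33 ± 0.137; 0.13 without them). Its receptor gene Sirpa (0.36) was also higher over all 10 libraries. Of the other 17 checkpoint genes Tnfrsf18 (-0.39), Cd160 (-0.49) and Tnfrsf9 (-0.78) were lower, against 4.43% of all genes tested. Pdcd1 (-0.16), Ctla4 (0.04) and Cd274 (0.00) were not called.

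Neutrophil genes were uneven among libraries of both groups. Of 12 genes of the granules of immature neutrophils, 7 were higher, against 7.8% of all genes tested (median log2 fold change 1.09), among them Chil3 (0.82), Ltf, Ngp (2.14), Camp (2.05) and Cd177 (1.00). Ltf, which encodes lactoferrin, had 552, 61.8, 43.2, 31.6 and 37.1 CPM in O1 to O5 and 21.1, 29.3, 60.7, 18.1 and 23.2 CPM in S1 to S5. O1 alone was far above the rest and the groups otherwise overlapped (2.25 ± 0.837; 0.51 without O1, and not called either then or with the replicate block). Without O1, 3 of the 12 genes were called, the median was 0.49 and the value of Ngp, no longer called, was 0.47. Of 22 genes of mature neutrophils 1 was called higher, Msrb1 (0.54), a share below the 7.8% of all genes tested, with a median of 0.89. The list turned over without O1 and O4, where none was higher, 1 was lower, the median was -0.94 and Msrb1, not called, was at 0.16. S100a9, a calcium-binding protein that neutrophils hold in large amounts, had 1773, 181, 89.6, 1745 and 86.9 CPM in O1 to O5 and 112, 99.7, 187, 1092 and 66.7 CPM in S1 to S5. O1, O4 and S4 were high, and the other 7 libraries of both groups overlapped (1.31 ± 1.07; -1.40 without O1 and O4; not called in either). S4, a pool of 5 mice, had a median ratio of 5.66 to the S group median over the mature neutrophil genes but of 0.715 over the granule genes, and it had the lowest hemoglobin share of the 10 libraries. Without S4, 16 of the 22 genes were called higher, without O4 none was, and with the replicate block 5 were.

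Genes of platelets, which can cling to mononuclear cells, were also uneven. Of 20, Itgb3 (1.09) was called higher and P2ry12 lower, against 7.8 and 4.43% of all genes tested, and the median was 0.83. Itga2b, the integrin alpha IIb chain, had 3266, 635, 728, 1582 and 449 CPM in O1 to O5 and 876, 702, 571, 802 and 652 CPM in S1 to S5. O1 and O4 were the highest libraries and O5 the lowest (0.89 ± 0.477). O5 was below every S group library for all 20 genes. Without O5, 13 of the 20 were called higher, and without O1 and O4 none was higher, 5 were lower and the median was -0.34. P2ry12, the ADP receptor of platelets, was lower although O4 lay above S3 and S5, with 36.9, 36, 39.5, 48.8 and 30.9 CPM in O group and 57, 59.6, 40.7, 68.2 and 46.4 CPM in S group (-0.50 ± 0.155). Of 5 endothelial genes Plvap (2.14) was called higher, and its value without O1 and O4 was -0.29.

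Among genes whose groups did not overlap, the 8 with the smallest P in each direction were taken as the leading genes. Mt1, a metallothionein that binds zinc and copper and responds to metals and glucocorticoids (chr8:94179082-94180327 on the plus strand of GRCm38), had the smallest P. It had 8.21, 7.91, 7.08, 7.38 and 5.57 CPM in O1 to O5 and 2, 2.87, 3.71, 3.49 and 3.13 CPM in S1 to S5. The groups were well apart, by 1.24 ± 0.182 on the log2 scale (adjusted P = 0.226 in edgeR's test), and the value was 1.16 without O1 and O4. Hif3a, a member of the hypoxia-inducible factor family (chr7:17031507-17062427 on the minus strand), had 0.245, 0.32, 0.377, 0.277 and 0.306 CPM in O group and 0.866, 0.856, 1.11, 0.859 and 0.955 CPM in S group. All O group values were below all S group values (-1.56 ± 0.228, adjusted P = 0.226), but the gene had only 19 counts over O group and 81 over S group.

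Next came genes with tight replicates and less than 2-fold change. Dock4, an activator of the small GTPase Rac, had 17.8, 16.5, 17.6, 15.1 and 14.2 CPM in O1 to O5 and 8.61, 11.6, 10.2, 7.57 and 10.1 CPM in S1 to S5 (0.75 ± 0.127). Tcn2, which encodes the vitamin B12 carrier transcobalamin, had 69.2, 66.7, 55.1, 62.7 and 50.6 CPM in O group and 44, 40.3, 45.9, 42.8 and 42.7 CPM in S group (0.50 ± 0.0913). Rab31, a GTPase of vesicle transport, had 84.3, 71, 67.3, 76.4 and 64 CPM in O group and 48.6, 47.7, 59.6, 46 and 56.1 CPM in S group (0.49 ± 0.1). In these 3 genes, too, no library overlapped with the other group. Ugt1a7c (0.56), a glucuronosyltransferase gene that shares exons with its neighbours in the Ugt1a cluster, and the processed pseudogenes Gm8129 (1.39), Gm5786 (1.27) and Gm6395 (1.55) completed the 8 higher genes. The 8 lower ones were Hif3a, Klrb1c, Klrd1, Trat1 (-0.42), an adaptor of the T cell receptor, and 4 others. These were Rpl9-ps6 (-0.63), Rpl9-ps4 (-0.67), Rpl17-ps3 (-0.54) and Gm14834 (-0.89), which carry the annotation of processed pseudogenes except Rpl9-ps6, annotated as protein coding. The Rpl9 and Rpl17 copies can share reads with the genes they are named for. Each of these 16 genes stayed under an unadjusted P of 0.05 in all 10 fits that left out 1 library, with the replicate block, and without O1 and O4. The genes were picked for small P values and no overlap in these same libraries. Low P values in fits to the same libraries or part of them are therefore no independent evidence.

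**Figure D5:**
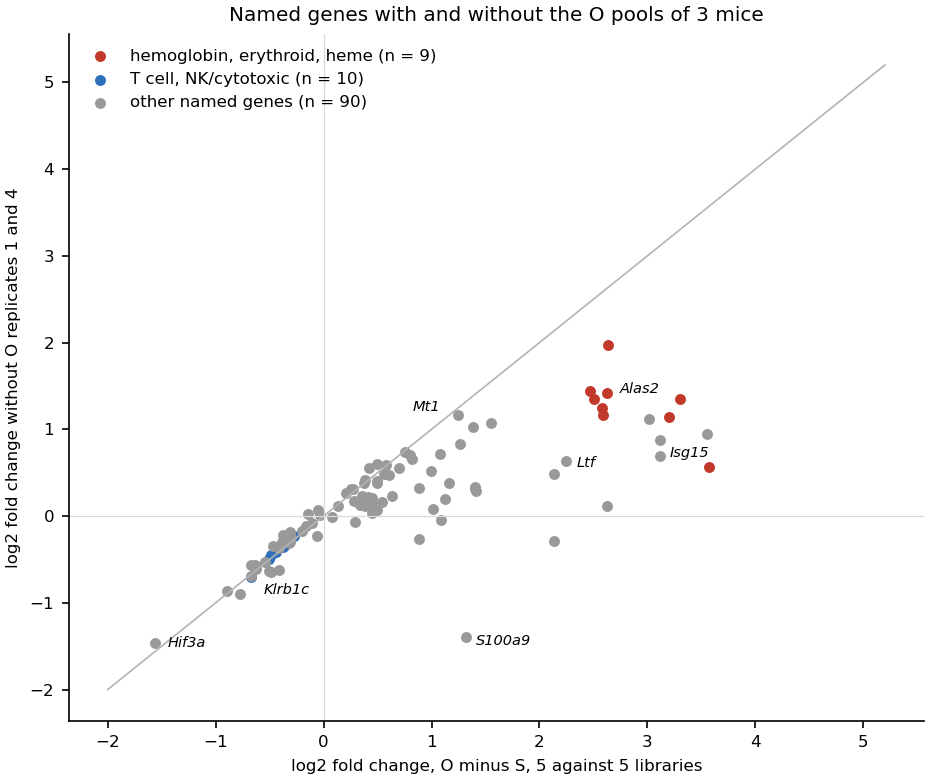
Log2 fold change of O group minus S group for the named genes over all 10 libraries (x axis) and without O1 and O4 (y axis), with the line of equality. T cell and NK genes, Mt1 and Hif3a lie near the line, most red cell genes lie below it but above 0, and S100a9 changes sign (1.31 against -1.40).

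None of 23 genes of glycolysis and hypoxia was called (median log2 fold change 0.15; Pkm 0.45), but 6 were called higher without O5 and 2 with DESeq2. Over all genes tested 7.8% were called higher and 4.43% lower, and the shares of the immediate early (7.69%), interleukin 1, TNF and toll-like receptor (8.7%), chemokine and ribosomal protein lists were near these. Of 26 immediate early genes, which respond within minutes to handling or signals, Fos (0.44) and Ppp1r15a (1.16) were called higher, and of 23 genes of interleukin 1, TNF and toll-like receptor signaling Tlr13 (0.41) and Tnfrsf1a (0.35) were. Of 17 genes linked to suppressive myeloid cells 3 were higher, among them Tgfb1 (0.38) and Cebpb (0.49), the latter just under the threshold. Of 28 chemokine and receptor genes, Ccl9 (0.42) was higher and Cxcr3 (-0.41), a receptor of effector T cells and NK cells, was lower. Of 79 ribosomal protein genes 5 were higher, among them Rps29 (0.70), the smallest P, and Rpl41 (1.13), the highest value, and 2 were lower, Rpl23a (-0.32) and Rps7. Of 9 stem and progenitor genes Myb was lower (-0.31), and of 12 basophil, mast cell and eosinophil genes Mcpt8 was higher (0.88). With the replicate block, 15 immediate early genes, 6 genes of interleukin 1, TNF and toll-like receptor signaling, 8 myeloid suppressor genes and 4 chemokine and receptor genes were called higher, and 3 of the latter lower. Without O1 and O4 the calls of Fos, Ppp1r15a, Tlr13, Tnfrsf1a, Tgfb1 and Mcpt8 were lost, with log2 fold changes of 0.21, 0.38, 0.14, 0.16, 0.11 and 0.33, and those of Cebpb, Ccl9, Cxcr3, Rps29, Rpl23a and Myb were kept. Of the 5 higher ribosomal protein genes 1 kept its call there, and Rpl41 was at 0.19. In that comparison 2 other genes of interleukin 1, TNF and toll-like receptor signaling were lower.

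Of the defining markers of the tumor cells, 3 were at or near 0 and Pmel was not. Over all 10 libraries, Tyr had 1 count, all in S group, Dct had 3, all in S group, and Mlana had 1, in O group. Pmel had a mean of 25.9 CPM in O group and 32.3 CPM in S group and was not called (-0.31), but the replicate block called it lower (-0.36). With all 15 PBMC libraries scaled together, its median was 32.8 CPM in C group, whose mice received no tumor cells. In S and O group it was 33.4 and 29.6 CPM. Of the 4 melanocyte genes tested, the full comparison without a block called only Trpm1 lower (-0.63). Its mean was 0.922 CPM in O group and 1.43 CPM in S group. The single liver gene tested, Trf (0.21), was not called, and the single keratinocyte gene, Sfn (-0.20), was lower. Neither Trpm1 (-0.58) nor Sfn (-0.17) was called without O1 and O4.

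The study chose 36 genes from its platelet libraries for measurement by qPCR, and in PBMCs 4 of them were higher and 6 lower in O group at an unadjusted P under 0.05, against 7.8 and 4.43% of all genes tested (median log2 fold change -0.09). The higher ones were C3, F13a1 (0.67), Clca3a1 (2.76) and Clec4g (1.97). The lower ones were Klrg1, Cd4, Ctsw (-0.43), Cd27 (-0.41), Prf1 and Il2rb (-0.35), all expressed by T cells or NK cells. Of these, 1 of the 4 higher and 5 of the 6 lower genes were called again without O1 and O4. Panel genes such as Icam1 (0.07), Tlr9 (-0.07), Kmt2d (-0.02) and H2-Ab1 (0.02) had values near 0.

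The C group libraries gave a background for each group when all 15 PBMC libraries were scaled together. On that scale the median of Mt1 was 3.73 CPM in C group, 3.26 in S group and 7.84 in O group, and that of Alas2 was 1170, 1417 and 6991 CPM. Klrb1c had medians of 24.5, 24.8 and 16.6 CPM and Lck of 252, 254 and 198 CPM in C, S and O group. For these 4 genes the C group and S group medians were close and that of O group lay apart, but single C group libraries reached 15.3 CPM for Mt1, above every O group library, and 3352 CPM for Alas2. The C group libraries ranged from 2.71 CPM for Mt1 and from 779.5 CPM for Alas2. Vcan was ordered otherwise, with 78.3 CPM in C group, between 52.5 in S group and 94.2 in O group, and so was Hif3a with 0.661, 0.911 and 0.318 CPM. For Rps29, C group (522 CPM) was near O group (570) and above S group (318), and for Rpl17-ps3 C group (164 CPM) was near O group (153) and below S group (226). For these ribosomal genes the S group median thus stood apart from both others. The leading pseudogene Gm14834 had this pattern too, with 0.946, 1.74 and 1.01 CPM in C, S and O group, though single C group libraries reached 1.81 CPM. No test was made between C group and the others here.

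Platelet libraries of the same groups allowed the response to be compared between tissues. PBMCs were isolated from the blood that remained after platelets were taken, so the tissues can share mice, while the interaction test treats their libraries as independent. In platelets the same comparison called 1849 of 13306 genes (13.9%). Over both tissues, 15896 genes were tested for an interaction of tissue and group. No gene passed an adjusted P under 0.05 (smallest 0.171), and 1955 (12.3%) had an unadjusted P under 0.05. DESeq2 gave 70 genes at the adjusted level, and a replicate block shared by the tissues gave 1. T cell genes were lower in O group in both tissues, with 17 of 26 lower in platelets (median -0.73), and of the 26 the PBMC change was above that in platelets in 6 and below it in 1 at an unadjusted interaction P under 0.05. The platelet libraries also had 13 of 28 erythroid genes called higher (median 1.89), but none of the 6 hemoglobin genes (median 0.61), of which 3 had an interaction P under 0.05. For Hba-a2 the log2 fold change was 2.64 in PBMCs and 0.40 in platelets (interaction adjusted P = 0.322). Among monocyte genes, 7 were higher in PBMCs, against 1 higher and 10 lower in platelets, and 10 of 25 had an interaction P under 0.05. Other lists went the other way, with the PBMC change below that in platelets at an unadjusted interaction P under 0.05. These were 16 of 33 proliferation genes, 19 of 79 ribosomal protein genes and 12 of 74 nuclear oxidative phosphorylation genes, with 0 above in each list. C3 was higher by 0.58 in PBMCs and lower in platelets (-0.67, called for the interaction), and Cd4 was lower by more in platelets (-1.28) than in PBMCs, also called for the interaction. None of these interaction values passed adjustment. Of the 36 panel genes, 27 had an interaction P under 0.05, and 29 of 35 were lower in platelets of O group, the tissue in which the panel was chosen, which is therefore no independent evidence of that direction.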

How the data were processed

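RNA of pooled PBMC samples was sequenced for the authors by a service provider, which also removed reads with adapters, poly-N or low quality and aligned the rest. The values deposited by the authors are raw counts per gene, made with HISAT2 (2.0.5) and featureCounts (1.5.0-p3) according to the submitters' processing notes. The notes name the build mm9, but gene positions in the study's supplement were the same as GRCm38 for 642 of 663 genes, so GRCm38 positions (GENCODE M21) and RefSeq promoter windows were used. Strand settings of the counting are not given in the sources used here. Libraries were grouped by their titles. Each library is a pool of mice, so P values measure the spread between pools.

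The members and gene lists were chosen with earlier results of these data known. Genes passing edgeR's filterByExpr (minimum count 10) were scaled with TMM factors (0.582 to 1.18) and tested with the quasi-likelihood F test (R 4.3.3, edgeR 4.0.16, two-sided). A standard error is the log2 fold change divided by the square root of F, and CPM values use the same factors. Of 13 hemoglobin symbols 10 matched the table and 6 passed the filter. Named genes were, in each direction, the 8 with the smallest P whose groups did not overlap, and of each list up to 4 called members and the most abundant one. Some items are not reported here, though list counts and medians include them. Any further list member is named with its values already known. The alternatives were DESeq2 1.42.0, no filter, RLE factors, removal of hemoglobin genes, limma voom 3.58.1 with sample weights, all 3 PBMC groups in one fit, the replicate block and leaving out libraries. The replicate block took the numbers to pair the libraries, although no label says what they share. Deviations of same-numbered S and O group libraries from their group means correlated with r from 0.102 to 0.349 over genes. Differently numbered libraries were not set beside them, so these values do not show a pairing. The scripts were tested on simulated data.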

Additional observations from a re-analysis of the deposited data

Results flagged for a closer look

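Within a group of 5 libraries, a single library was set against the other 4 with Dixon's criterion (critical value 0.71) for the library measures, the genes given by library and 10 list sums, in 96 groups of values. There were 15 flags, where chance gives about 1 in 20 groups. In O group, O1 was far above the rest for Slc4a1 (16490 CPM), Urod (1512 CPM), Rsad2 (5757 CPM), Ltf (552.4 CPM) and Cd47 (545.9 CPM), and for the summed level of the erythroid list (106800 CPM) and of the proliferation list (2294 CPM). In S group, S3 stood out for its number of detected genes (32900) and for Isg15 (173.6 CPM), Rsad2 (286.9 CPM) and Ltf (60.7 CPM). S4 stood out for S100a9 (1092 CPM) and the mature neutrophil list (5439 CPM), high in both, and for Cd47 (276.7 CPM), low. S1 was high for Cd3d (121.7 CPM). In edgeR's test no gene differed between PBMCs and platelets in its response at an adjusted P under 0.05, 1955 did at an unadjusted P under 0.05, and DESeq2 gave 70 at the adjusted level.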

How the results depend on the processing

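The pools, not mice, are the replicates, and 5 against 5 pools limit every comparison. Depth was similar in all libraries, but genes near 1 CPM, such as Hif3a, rest on few counts. The count of 1796 called genes was between 1343 and 2677 when 1 library was left out, the latter without O5, and the count of lower genes was between 477 (without S5) and 1044 (without O5). Genes called lower numbered 1033 without a filter and 1186 with voom, against 651. At an adjusted P under 0.05, DESeq2 gave 240 and voom 1, and every fit that left out 1 library gave 0. Without O1 and O4, 683 genes were called higher, against 1145. For the interaction of tissue and group, DESeq2 gave 70 genes, the replicate block 1, and the fits without 1 library from 0 to 1. The replicate block gave 2023 called genes in PBMCs (1244 higher, 779 lower) and 0 at an adjusted P under 0.05. Under this pairing 11 of the 88 called named genes were no longer called, namely Urod, Ltf, Ngp, Itgb3, Sfn, Plvap, Rsad2, Nusap1, Mki67, Ppp1r15a and Atp5b. The cause of these shifts was not tested. Directions of named genes changed in 16 values and were kept in all others. Without O1 and O4 they were S100a9 (-1.395), Itgb3 (-0.05), Itga2b (-0.265), Irf8 (0.011), Gata2 (-0.068), Plvap (-0.286), Cd74 (0.019), Cd55 (0.072) and Rplp0 (-0.016). Irf8 also turned with voom (0.026), and when 1 library was left out Irf8 ranged from -0.066 to 0.012, Cd55 from -0.181 to 0.04 and Rplp0 from -0.004 to 0.127. Of the 88 called named genes, 54 kept their call and direction without O1 and O4, 71 without O1 alone and 75 with voom. RLE factors ended the call of none, and removal of hemoglobin genes of none of the 84 that remained. These counts leave out Cebpb, whose unadjusted P in edgeR's test rounds to 0.05. In the list of suppressive myeloid cells, which holds Cebpb, 3 genes were called higher, and 2 after removal of hemoglobin genes.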
